A study of Mus musculus with 18 samples.

Results

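Interferon-stimulated genes were followed in mouse acute myeloid leukemia (AML) treated with CX-5461, a small molecule that blocks RNA polymerase I. The set was a list of 39 genes chosen by name from the type I interferon response, with earlier results of these data known. Of these, 38 were present in each of the 3 deposited tables, which held 12679, 12861 and 12838 genes. Ifi44 was in none of the tables. In p53 wild-type leukemia after 72 h of CX-5461, the authors' deposited test gave 34 of the 38 genes as lower and 0 as higher. Of all genes, 15.1% were lower and 16.1% higher. After 10 h, a separate fit of the counts called 1 of the 38 lower and 0 higher, where 4.32% of all genes were lower and 3.78% higher. The authors' deposited test gave 3 lower and 0 higher at 10 h, against 6.83% and 3.57% of all genes. In p53-null leukemia at 10 h 0 of the 38 passed the authors' deposited test. There 0.0389% of all genes were lower and 0.148% higher, so that the count says little about these genes.

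The leukemia carried the MLL/ENL fusion and Nras and was either wild type for p53 (p53WT) or null for it (p53null). All recipients were C57BL/6 mice with established disease that had received leukemia cells of the same strain, and the sequenced cells were GFP-positive cells sorted from bone marrow. The 18 samples formed 6 groups of 3: p53WT with vehicle or CX-5461 for 10 h, p53null with vehicle or CX-5461 for 10 h, and p53WT with vehicle or CX-5461 for 72 h. Titles of the p53WT and p53null samples at 10 h carry different tags whose meaning is not given, and those at 72 h carry neither, so that genotype, time and a possible difference between transplanted leukemias cannot be told apart. The number of animals behind the samples is not in the labels. The p-values therefore measure the spread between these samples, which may be technical in part.

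Type I interferons bind the IFNAR receptor, whose kinases JAK1 and TYK2 activate transcription factors of the STAT family, STAT2 among them. With IRF9 the STATs form the complex ISGF3, which binds a DNA motif, the interferon-stimulated response element (ISRE), beside its target genes. Many targets feed back on the pathway: IRF7 drives interferon genes, RNA helicases detect viral RNA, and USP18 damps signalling at the receptor. Blood cells express many of these genes at a low level without infection.

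The genes were described in 4 roles. The 3 transcription factors were Irf7, Irf9 and Stat2. The 10 sensors were the RNA helicases Ifih1 (MDA5), Ddx58 (RIG-I, now also named Rigi) and Dhx58 (LGP2), the RNA-activated kinase Eif2ak2 (PKR), the oligoadenylate synthetases Oas1a, Oas2 and Oas3, the nucleic acid sensor Zbp1, and the PYHIN family genes Ifi204 and Ifi209. The 9 regulators included the ubiquitin-like modifier Isg15, its protease Usp18 and the ligase Herc6. The 17 effectors included the Ifit genes, Mx1, Rsad2 (viperin), Bst2 (tetherin) and Samhd1, of which 16 were measured.

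Promoter sequences are shown because the ISRE is the element through which these genes are known to respond. RefSeq windows (build GRCm38.p6, 250 bases before to 50 bases after a gene start) were found for 30 of the 39 genes. The ISRE core GAAANNGAA, searched on both strands, occurred in 15 of the 30 (50%), against 2638 of 27025 genes with a window (9.76%) and 2812 of 32851 windows (8.56%). It was present in 5 of 6 sensors, 1 of 3 transcription factors, 2 of 6 regulators and 7 of 15 effectors with a window. A second motif, the gamma-activated site TTCNNNGAA, which reads the same on both strands, occurred in 6 of 30 (20%), against 9.55% of all genes with a window. The 2 motifs can share bases, and a match describes letters and not a bound site.

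The following stretches end before the gene start, run 5′ to 3′ on the strand of the gene, and have each ISRE core or its reverse complement in capitals. The first 6 belong to the genes with the smallest p-values at 72 h that hold the core upstream of the start. Isg15, with 3 overlapping cores, and Stat2, which holds a core and did not fall at 72 h, were added after their values were seen.
Bst2, chr8:71537568-71537622, minus strand: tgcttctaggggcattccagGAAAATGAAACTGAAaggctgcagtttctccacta
Slfn8, chr11:83020829-83020877, minus strand: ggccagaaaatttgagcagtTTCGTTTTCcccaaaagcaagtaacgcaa
Oas3, chr5:120777700-120777754, minus strand: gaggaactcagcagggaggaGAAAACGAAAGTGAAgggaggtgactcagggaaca
Oas1a, chr5:120907526-120907565, minus strand: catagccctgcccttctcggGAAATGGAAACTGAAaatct
Ifit1, chr19:34640760-34640833, plus strand: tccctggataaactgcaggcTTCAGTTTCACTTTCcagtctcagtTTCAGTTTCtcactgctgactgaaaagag
Slfn5, chr11:82951927-82951998, plus strand: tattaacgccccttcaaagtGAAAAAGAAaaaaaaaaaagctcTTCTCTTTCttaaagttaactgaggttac
Isg15, chr4:156200856-156200916, minus strand: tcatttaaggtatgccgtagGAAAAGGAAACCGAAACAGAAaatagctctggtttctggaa
Stat2, chr10:128270257-128270305, plus strand: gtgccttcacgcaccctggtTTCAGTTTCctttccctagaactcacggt

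Counts per library were given for p53WT AML at 10 h only, with 21578685 to 48118513 counts over the genes of the table. Levels per library are given in CPM, counts scaled to the library total after its adjustment by TMM normalization factors. In p53null AML the authors' deposited table lists Trp53 at a mean of 61.5 CPM, against 169 and 163 CPM in p53WT AML at 10 h and 72 h. The p53 target Cdkn1a had a log2 fold change of 2.25 at 10 h and 1.70 at 72 h in p53WT AML and of -0.03 in p53null AML in the authors' deposited tables. All fold changes are CX-5461 over vehicle. The direction was checked on the counts at 10 h, and the other 2 tables were read the same way.

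Before the comparison of groups, the libraries of each arm differed among themselves in these genes. Vehicle library 1 was the lowest vehicle library for 37 of 38 genes, and CX library 1 the lowest CX library for 37 of 38, with both true for 36. Over all 12679 genes, these shares were 27.2% for vehicle library 1 and 31.2% for CX library 1. Relative to the vehicle mean, the median log2 CPM of the 38 genes was -0.45, 0.25 and 0.19 in vehicle libraries 1, 2 and 3 and -0.37, 0.05 and 0.14 in CX libraries 1, 2 and 3, while the median of all genes lay between -0.01 and 0.01 in each. Both libraries numbered 1 were the deepest of their arm, at 48118513 and 37244725 counts. The part of depth in the pattern was not tested.

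**Figure D1:**
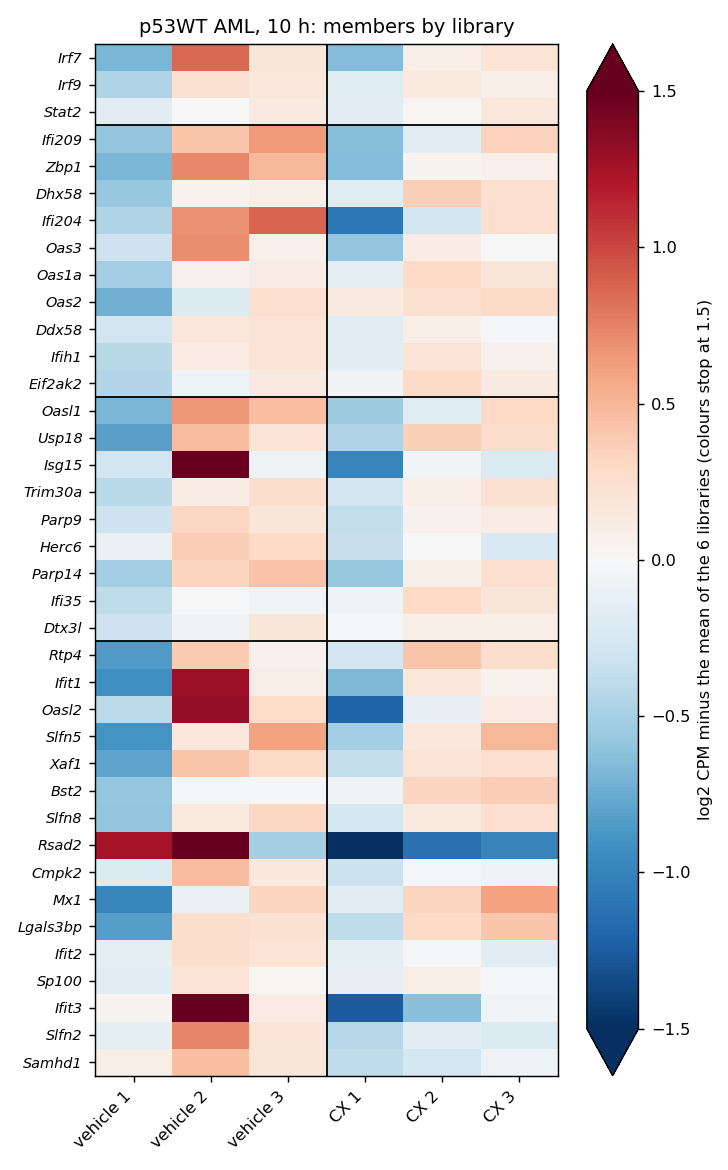
Heat map of 38 interferon-stimulated genes (rows, grouped by role with black lines) in the 6 libraries of p53WT AML at 10 h (columns). Colour gives log2 CPM minus the mean of the 6 libraries, and the columns of vehicle library 1 and CX library 1 are the lowest of their arm for 37 of 38 genes each.

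The first comparison asked how these genes responded to 10 h of CX-5461 in p53WT AML. Most did not separate the arms. By quasi-likelihood testing in edgeR, with p-values adjusted over all genes after Benjamini and Hochberg, 1 of 38 was lower (4.32% of all genes were) and 0 were higher (3.78% of all genes were). At an unadjusted p under 0.05 there were 6 of 38, against 31.4% of all genes. The median log2 fold change was -0.06, against 0.00 for all genes, with 21 negative and 17 positive values. All 3 CX libraries lay below all 3 vehicle libraries for 4 genes (19.1% of all genes did), above them for 0 (19.9% of all genes did), and overlapped with them for 34.

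The gene that fell was Samhd1 (ENSMUSG00000027639), which encodes a dNTP hydrolase that restricts viral reverse transcription. Vehicle libraries 1, 2 and 3 held 186, 239 and 199.6 CPM of it (208 ± 27.6, SD, n = 3), and CX libraries 1, 2 and 3 held 134, 146 and 166 CPM (149 ± 16.2, SD, n = 3). The arms did not overlap. Its log2 fold change was -0.49 (SE 0.114), with an adjusted p of 0.0481 by the edgeR quasi-likelihood test. That adjusted p was 0.188, 0.17 and 0.112 without CX library 1, 2 or 3, 0.0571 without vehicle library 3, 0.152 without library 1 of both arms, and 0.055 by limma-voom, so that the call did not hold there. Calls over all genes went from 1027 to 25, 23 and 23 without CX library 1, 2 or 3. They went to 12 without library 1 of both arms, to 1314 without vehicle library 3 and to 724 by limma-voom. The log2 fold change of Samhd1 ranged from -0.57 to -0.37 when libraries were left out.

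Rsad2 (ENSMUSG00000020641), which encodes the antiviral enzyme viperin, had the largest difference of the 38 genes. Its levels were 60.9, 216 and 18.3 CPM in vehicle libraries 1, 2 and 3 and 7.88, 11.8 and 12.9 CPM in CX libraries 1, 2 and 3. The means were 98.5 ± 104 CPM (SD, n = 3) and 10.9 ± 2.63 CPM (SD, n = 3). All CX values were below all vehicle values, but the vehicle libraries themselves spanned a wider range than the gap. The log2 fold change was -3.20 (SE 0.838) and the edgeR quasi-likelihood adjusted p was 0.0574. The log2 fold change was -1.90 (adjusted p 0.0504 by edgeR) without vehicle library 2. Without vehicle library 3 it was -3.69 with an adjusted p of 0.0182, and the authors' deposited table lists it at -3.18 with a false discovery rate (FDR) of 7.95e-06.

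In 2 other effectors with low CX values, vehicle library 2 also stood high. Ifit3, an RNA-binding antiviral protein, had 3.21, 10.5 and 3.40 CPM with vehicle and 1.32, 2.02 and 3.02 CPM with CX. Slfn2, a Schlafen gene that maintains immune cell quiescence, had 124, 228 and 156 CPM against 102, 123 and 119 CPM. Neither gene's arms overlapped, and vehicle library 2 was the highest library for both. Their log2 fold changes were -1.44 (SE 0.54) and -0.56 (SE 0.21), with adjusted p of 0.124 and 0.123 by edgeR, and they were -0.67 and -0.29 without vehicle library 2. The authors' deposited table lists 3 of the 38 genes as lower at 10 h, Ifit3, Rsad2 and Samhd1, and 0 as higher, against 6.83% and 3.57% of all genes.

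Among the regulators, Isg15, whose product is joined to other proteins like ubiquitin, was at 21.8, 80.9 and 25.4 CPM with vehicle and at 13.4, 25.9 and 23.0 CPM with CX-5461. The arms overlapped, and only vehicle library 2 stood high. Its log2 fold change was -1.04 (SE 0.527), with an adjusted p of 0.223 by the edgeR quasi-likelihood test, and it was -0.19 without vehicle library 2. Usp18, the protease that removes ISG15, had 12.2, 29.6 and 24.8 CPM against 15.6, 27.5 and 25.8 CPM, a log2 fold change of 0.05 (SE 0.346). Herc6, the ligase that attaches ISG15 in mice, had 28.1, 38.7 and 37.1 CPM against 23.7, 29.97 and 25.7 CPM, a log2 fold change of -0.39 (SE 0.143). Vehicle library 1 of Herc6 lay within the range of the CX libraries. Leaving out vehicle library 1 called Herc6 (-0.52, adjusted p 0.0379), Ifit2 (-0.34, adjusted p 0.034) and Slfn2 (-0.75, adjusted p 0.0425) lower by the edgeR quasi-likelihood test, 4 genes in all with Samhd1. Calls over all 12679 genes, in either direction, also rose with this omission, from 1027 to 1678.

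None of the transcription factors passed the test at 10 h. Irf7 had 34.2, 99.7 and 62.2 CPM in the vehicle libraries and 34.9, 58.8 and 63.6 CPM in the CX libraries. Irf9 had 80.96, 129.8 and 124 CPM against 97.4, 123 and 118 CPM. Stat2 had 70.1, 78.9 and 86.4 CPM against 70.6, 80.6 and 88.8 CPM. In each the arms overlapped, and library 1 was the lowest of both arms. Vehicle library 2 of Irf7 lay above every CX library, and without it the log2 fold change of Irf7 was 0.13. Log2 fold changes were -0.32 (SE 0.390), 0.02 (SE 0.182) and 0.03 (SE 0.106), with adjusted p of 0.609, 0.963 and 0.879 by edgeR.

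The 10 sensors had log2 fold changes of -0.74 (Ifi204) to 0.39 (Oas2) at 10 h, with 5 negative and 5 positive values and 0 calls by edgeR (0 also where p was under 0.05 before adjustment). MDA5 (Ifih1) had 58.9, 85.3 and 89.95 CPM in the vehicle libraries and 70.1, 90.7 and 82.1 CPM in the CX libraries. RIG-I (Ddx58) had 55.2, 75.5 and 77.7 CPM against 60.1, 71.9 and 66.2 CPM. Both genes overlapped between arms, with log2 fold changes of 0.05 (SE 0.169) and -0.07 (SE 0.137). Ifi204, a cytosolic and nuclear DNA sensor, had 11.1, 24.5 and 27.8 CPM against 7.2, 12.6 and 18.2 CPM. Its vehicle library 1 lay inside the CX range. Oas2 was called higher without vehicle library 3 (0.66, adjusted p 0.0439 by the edgeR quasi-likelihood test) and at no other omission of 1 library. Over all genes, 1314 were called without vehicle library 3, against 1027 with every library.

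Of the 16 effectors, 10 had negative and 6 positive values at 10 h, with 0 called higher by edgeR. Bst2, which tethers enveloped virions to the cell surface, had 55.2, 81.4 and 80.5 CPM in the vehicle libraries and 79.4, 103 and 106 CPM in the CX libraries, a log2 fold change of 0.41 (SE 0.173) with an edgeR quasi-likelihood adjusted p of 0.157. CX library 1 lay within the vehicle range. Ifit1, which binds viral RNA that lacks cap methylation, had 7.77, 35.7 and 15.7 CPM against 9.20, 16.3 and 15.2 CPM, and Oasl2 had 28.2, 92.5 and 45.2 CPM against 16.2, 34.2 and 40.5 CPM. Both overlapped between the arms and were highest in vehicle library 2. Their log2 fold changes were -0.54 (SE 0.521) and -0.87 (SE 0.486), and without vehicle library 2 they were 0.23 and -0.28.

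**Figure D2:**
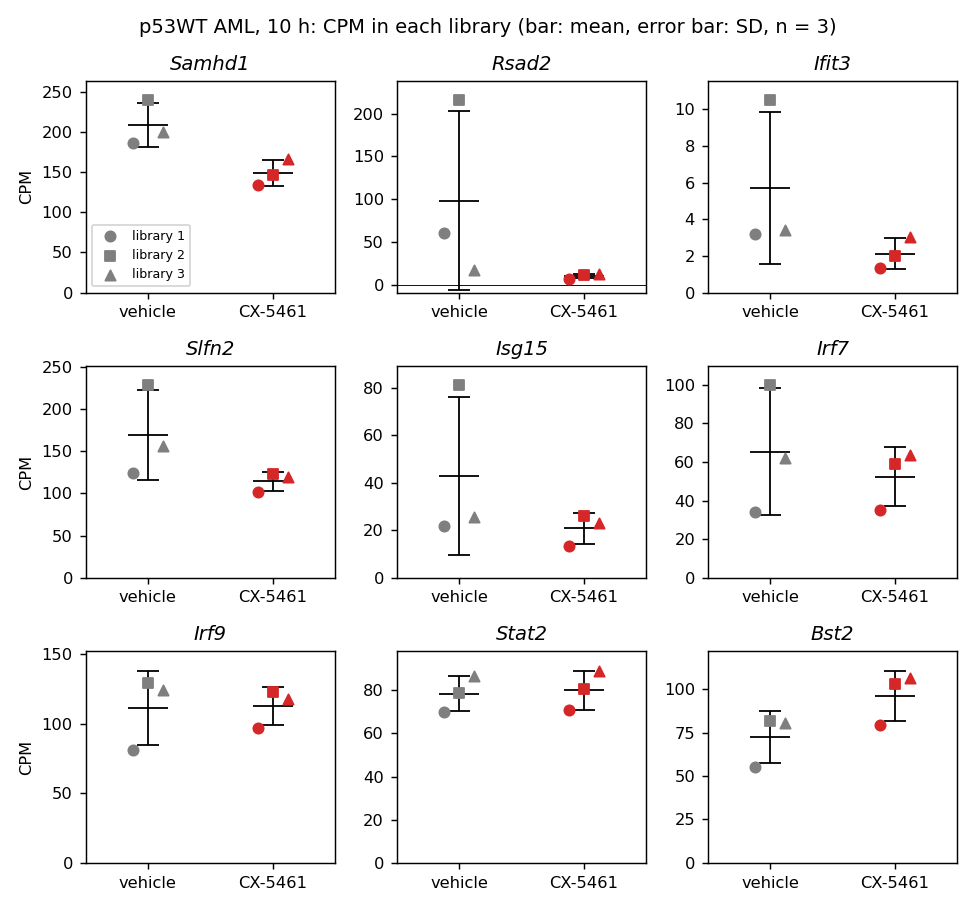
CPM of 9 interferon-stimulated genes in each library of p53WT AML at 10 h (points, with 1 marker shape per library number), by arm on the x axis, with the mean (bar) and SD (error bar, n = 3). Samhd1, Rsad2, Ifit3 and Slfn2 have every CX library below every vehicle library, and library 1 is the lowest of its arm in each panel except for vehicle in Rsad2.

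Among cell type markers, those of erythroid cells and neutrophils differed most between the arms at 10 h. The summed level of 13 measured erythroid markers was 491 to 15732 CPM in the vehicle libraries and 187 to 341 CPM in the CX libraries (Epor was not in the table), and 9 of the 13 were called lower by edgeR. For 12 neutrophil markers it was 7022 to 19021 against 2837 to 3967 CPM, and for 14 monocyte and macrophage markers 1522 to 2101 against 1546 to 1808 CPM. Ly6c2 made up most of the last sum, while 13 of the 14 genes had negative log2 fold changes (median -0.76, C1qa -2.79), 2 called lower by edgeR and 8 in the authors' deposited table. Vehicle library 2 had the highest erythroid and neutrophil sums and vehicle library 3 the lowest, the same order as that of Rsad2. In Ifit3, Slfn2 and Samhd1 vehicle library 2 was also the highest, but vehicle library 1 was the lowest, as in 37 of the 38 genes. Of 8 plasmacytoid dendritic cell markers 3 were measured, Bst2 itself among them, and Siglech and Ccr9 were not in the table. Sums of 4 of 8 B and plasma cell markers were 141 to 383 against 92.4 to 106 CPM, with Ms4a1, Pax5 and Ebf1 among those not in the table. Those of 2 of 9 T and NK cell markers were 57.4 to 72.7 against 91.7 to 93.1 CPM. Nearly all of this sum was Nkg7 (log2 fold change 0.51), while Cd3d had -1.79. Sums of 4 of 6 megakaryocyte markers were 6.40 to 16.8 against 4.43 to 6.70 CPM. Those of 3 of 6 stromal and endothelial markers were 85.9 to 100.2 against 82.7 to 84.5 CPM. Pecam1 (-0.07) made up most of them, while Cxcl12 had -1.15 and Col1a1 -0.67. Whether these markers came from the leukemia cells or from other cells was not tested. The part of cells with these markers in the levels of Rsad2, Ifit3, Slfn2 and Samhd1 was not tested either. In sorted bulk RNA fewer cells of a type and less RNA per cell cannot be told apart.

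The second comparison asked for the response of p53null AML to 10 h of CX-5461. In the authors' deposited table (edgeR), 0 of 38 genes passed an FDR of 0.05, where 0.148% of all genes were higher and 0.0389% lower. At an unadjusted p under 0.05 there were 3 of the 38 in the authors' deposited table, Trim30a, Cmpk2 and Stat2, against 6.07% of all genes. Log2 fold changes were small and mostly of 1 sign. They were positive for 37 of 38 genes in the authors' deposited table, with a median of 0.15, while 49.2% of all genes were positive at a median of -0.00. Genes that vary together between libraries, as these did in p53WT AML, are not independent in their sign.

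The highest values in p53null AML were those of the mitochondrial nucleotide kinase gene Cmpk2 (0.39, FDR 0.807), Isg15 (0.34, FDR 0.825), Oasl2 (0.28, FDR 0.976), the poly(ADP-ribose) polymerase gene Parp14 (0.25, FDR 0.927) and Trim30a (0.25, FDR 0.501) in the authors' deposited table. None of these passed after adjustment over all genes, although Cmpk2 and Trim30a had an unadjusted p under 0.05 in the authors' edgeR test. Irf9 was the gene with a negative value (-0.05), while Irf7 had 0.10 and Stat2 0.18 in the authors' deposited table. Medians by role in the authors' deposited table were 0.10 for transcription factors, 0.16 for sensors, 0.19 for regulators and 0.13 for effectors. Rsad2, at -3.18 in p53WT AML, had 0.11 in p53null AML at 10 h in the authors' deposited tables. The difference between the genotypes was not tested, because no counts were given for the p53null libraries.

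The third comparison asked for the response of p53WT AML after 72 h of CX-5461, and here nearly the whole group was lower. In the authors' deposited table, 34 of 38 genes (89.5%) were lower at an FDR under 0.05 and 0 were higher, against 15.1% lower and 16.1% higher of all genes. The median log2 fold change was -0.88 in the authors' deposited table, or 1.84-fold lower, against -0.01 for all genes, and all 38 values were negative (51.3% of all genes). At least 2-fold lower at that FDR were 15 of the 38 genes, against 1.14% of all genes in the authors' deposited table. The table gives no value per library, so that neither the spread between samples nor the weight of a single library could be seen.

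**Figure D3:**
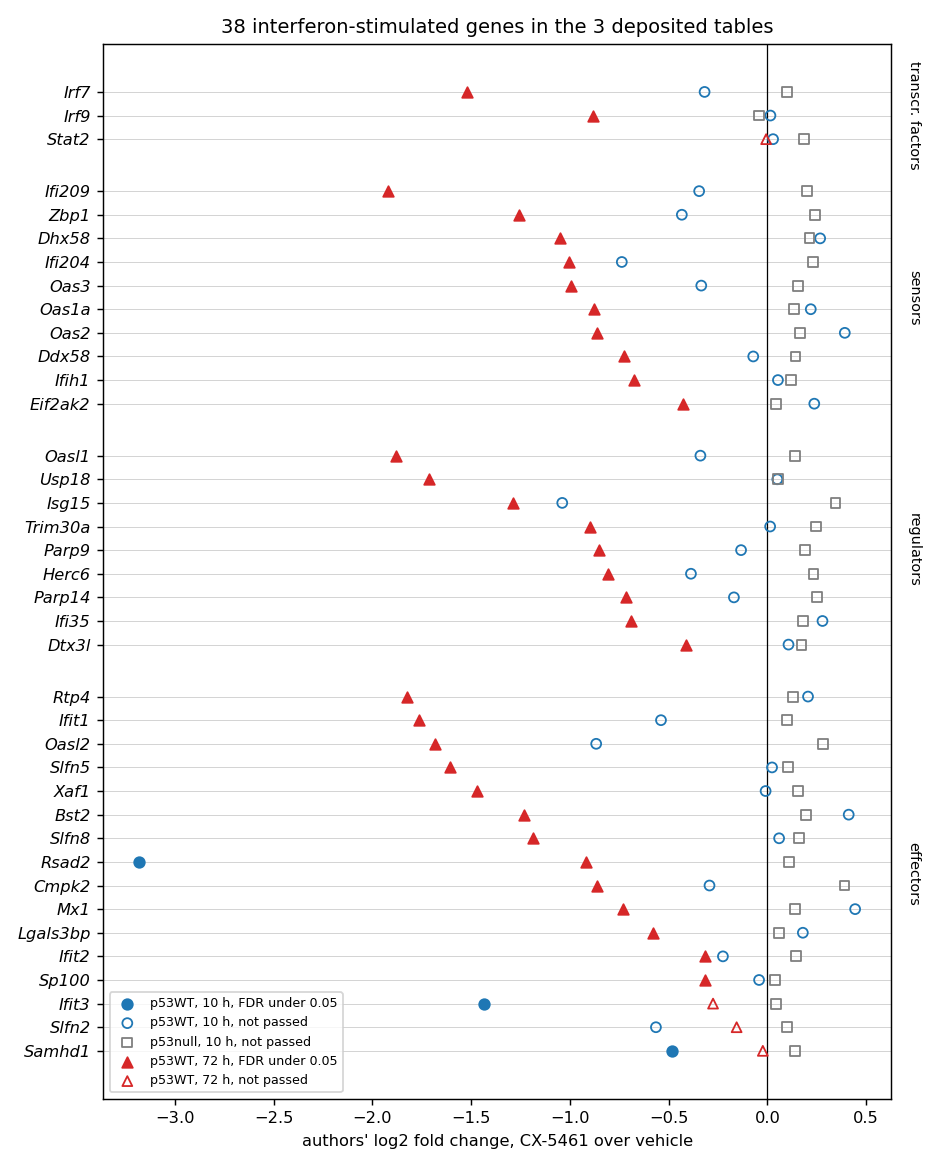
The authors' log2 fold change (x axis, CX-5461 over vehicle) of 38 interferon-stimulated genes (rows, by role) in the 3 deposited tables. Filled symbols have an FDR under 0.05: 34 red triangles (p53WT, 72 h) and 3 blue circles (p53WT, 10 h) are filled, no grey square (p53null, 10 h) is, and 37 of 38 grey squares lie right of 0.

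Of the transcription factors, Irf7 and Irf9 fell at 72 h and Stat2 did not pass. Irf7, which amplifies interferon production, had a log2 fold change of -1.52 (FDR 5.13e-29, mean 30.5 CPM) in the authors' deposited table, 2.87-fold lower. Irf9, the DNA-binding subunit of ISGF3, had -0.89 (FDR 1.16e-23, mean 78.8 CPM), 1.85-fold lower, in the authors' deposited table. Stat2, its partner, had -0.01 (FDR 0.975, mean 68.6 CPM) in the authors' deposited table. The value of Stat2 was the smallest of the 38 genes, although its window holds an ISRE core.

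All 10 sensors fell at 72 h, with a median of -0.93. The largest falls were those of the PYHIN gene Ifi209 (-1.92, FDR 4.71e-16, 3.79-fold lower) and Zbp1 (-1.26, FDR 1.68e-18), which senses left-handed nucleic acids, in the authors' deposited table. The helicase genes Dhx58, Ddx58 and Ifih1 had -1.05, -0.72 and -0.67, each with an FDR of 5.52e-14 or lower, in the authors' deposited table. The oligoadenylate synthetases, which activate RNase L, fell together, with -0.88 for Oas1a, -0.86 for Oas2 and -0.99 for Oas3 in the authors' deposited table. Ifi204 had -1.0 (FDR 0.0206), and Eif2ak2, which halts translation on double-stranded RNA, had the smallest fall of the sensors, -0.43 (FDR 4.84e-05), in the authors' deposited table.

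All 9 regulators fell as well, with a median of -0.85. Oasl1, which represses translation of Irf7 mRNA, had -1.88 (FDR 7.72e-19, mean 4.88 CPM) in the authors' deposited table. Usp18 had -1.72 (FDR 3.83e-21) and Isg15 -1.29 (FDR 2.18e-13), both parts of the ISG15 system, and the ligase Herc6 had -0.81 (FDR 1.45e-15) in the authors' deposited table. Usp18 and Oasl1 restrain the pathway and were 3.28-fold and 3.68-fold lower in the authors' deposited table, among the larger falls of the group. The partners Parp9 and Dtx3l, an ADP-ribosyltransferase and a ubiquitin ligase that act as a complex, had -0.85 and -0.41, and Parp14 had -0.71 in the authors' deposited table. Trim30a had -0.90 and Ifi35 -0.69 in the authors' deposited table, each with an FDR of 8.61e-10 or lower.

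Effectors ranged widely at 72 h, with 13 of 16 lower and a median of -0.89. Rtp4 (-1.82, FDR 6.94e-50, mean 20.6 CPM), Ifit1 (-1.76, FDR 6.03e-20), Oasl2 (-1.68, FDR 1.61e-16), Slfn5 (-1.61, FDR 4.30e-18) and the pro-apoptotic Xaf1 (-1.47, FDR 1.14e-30) were more than 2-fold lower in the authors' deposited table. So were Bst2 (-1.23, FDR 1.56e-44) and Slfn8 (-1.19, FDR 1.68e-25). Rsad2 (-0.92, FDR 0.00623), Cmpk2 (-0.86), the dynamin-like GTPase gene Mx1 (-0.73), Lgals3bp (-0.58), Ifit2 (-0.32) and the nuclear body gene Sp100 (-0.32) fell by less in the authors' deposited table. The 3 effectors that did not pass were Slfn2 (-0.16, FDR 0.128), Ifit3 (-0.28, FDR 0.508, mean 2.14 CPM) and Samhd1 (-0.02, FDR 0.88) in the authors' deposited table. Samhd1 was thus called at 10 h and not at 72 h, and Rtp4, Bst2 and Xaf1 the reverse. Whether the 10 h and 72 h responses differ was not tested, because no counts were given for the samples at 72 h.

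Neighbouring genes did not always move alike. By the order of RefSeq genes (GRCm38.p6), Rsad2 and Cmpk2 stand next to each other, and their log2 fold changes were -3.20 and -0.29 in the edgeR quasi-likelihood fit at 10 h but -0.92 and -0.86 at 72 h in the authors' deposited table. In the Ifit cluster, Ifit1 had -1.76 at 72 h while its cluster neighbours Ifit2 and Ifit3 had -0.32 and -0.28 in the authors' deposited table. The adjacent Oasl2 and Oasl1 had -1.68 and -1.88, and in the Schlafen cluster Slfn5, Slfn8 and Slfn2 had -1.61, -1.19 and -0.16 in the authors' deposited table. The gene models of Dtx3l and Parp9 overlap, and the library kit does not mark strand, so their counts cannot be fully separated. Ifit3 and Ifit3b, Oas1a and Oas1g, Slfn8 and Slfn9, and the PYHIN genes are similar copies. Their counts may be uncertain for another reason, reads that match several copies, which was not measured.

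Falls at 72 h were found with and without an ISRE core in the window. Of 14 measured genes with a core in the window, 12 were lower at 72 h with a median log2 fold change of -0.91, and of 15 measured genes with a window and no core, 13 were lower with a median of -0.81, by the authors' deposited table. Irf7, Oasl1, Oasl2, Xaf1 and Ifi209 fell with no match in the window, which says only that these letters are not in it. The 2 groups of genes were not tested against each other, and Rtp4 and Usp18, with large falls, had no window.

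Other genes of the pathway were counted from lists that hold none of the 38. Of 29 measured receptors, kinases and upstream factors, 6 were lower and 7 higher at 72 h in the authors' deposited table, at a median of -0.00, near the shares of all genes (15.1% lower and 16.1% higher). Among the lower genes were Irf8 (-1.42), a myeloid transcription factor, the interferon gamma receptor gene Ifngr1 (-0.76), the ubiquitin ligase gene Trim25 (-0.57) and the receptor gene Ifnar2 (-0.35) in the authors' deposited table. Among the higher genes were Tlr7 (0.56), a sensor of single-stranded RNA, Ikbke (0.40) and Ifngr2 (0.38) in the authors' deposited table. The receptor gene Ifnar1 had -0.10 (FDR 0.407), and Irf3 had -0.01 (FDR 0.962) in the authors' deposited table.

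Of 55 measured further interferon-induced genes, 32 (58.2%) were lower and 4 higher at 72 h in the authors' deposited table, at a median of -0.39. Of all genes, 15.1% were lower and 16.1% higher there. The genes with the smallest p-values were Oas1b (-1.10), Oas1g (-0.80), Parp12 (-0.99), Trim34a (-1.08), the helicase gene Ddx60 (-1.03), Uba7 (-0.59), the activating enzyme for ISG15, Ifi27 (-0.76) and Ly6e (-0.89) in the authors' deposited table. The 4 higher genes, named after their values were seen, were Slfn1 (0.71), Ifitm1 (1.30), Iigp1 (1.52) and Znfx1 (0.28) in the authors' deposited table, of which Ifitm1 and Iigp1 had means of 1.23 and 1.74 CPM. At 10 h in p53WT AML the edgeR quasi-likelihood test called 2 of 56 further genes lower, Slfn1 (-1.44) and the guanylate-binding protein gene Gbp2 (-1.60), and 0 higher. It called 4 of 30 upstream genes lower, Tlr7 (-0.71), Ptpn6 (-0.32), Jak1 (-0.24) and Irf2 (-0.36), and 0 higher. The shares called lower were 3.57% of the further genes and 13.3% of the upstream genes. Of all genes, 4.32% were called lower and 3.78% higher by that test. The authors' deposited table lists 7 of the 56 further genes (12.5%) and 3 of the 30 upstream genes (10%) as lower at 10 h. It lists 0 of either as higher, and 6.83% of all genes as lower and 3.57% as higher. The 7 were Slfn1, Gbp2, Isg20, Ube2l6, Ifit3b, Ly6a and Nt5c3. In p53null AML, 0 of 58 and 0 of 30 passed by the authors' edgeR (7 and 1 at an unadjusted p under 0.05), with 53 and 25 positive values in the authors' deposited table. Of all genes there, 6.07% had an unadjusted p under 0.05 and 49.2% had positive values.

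**Figure D4:**
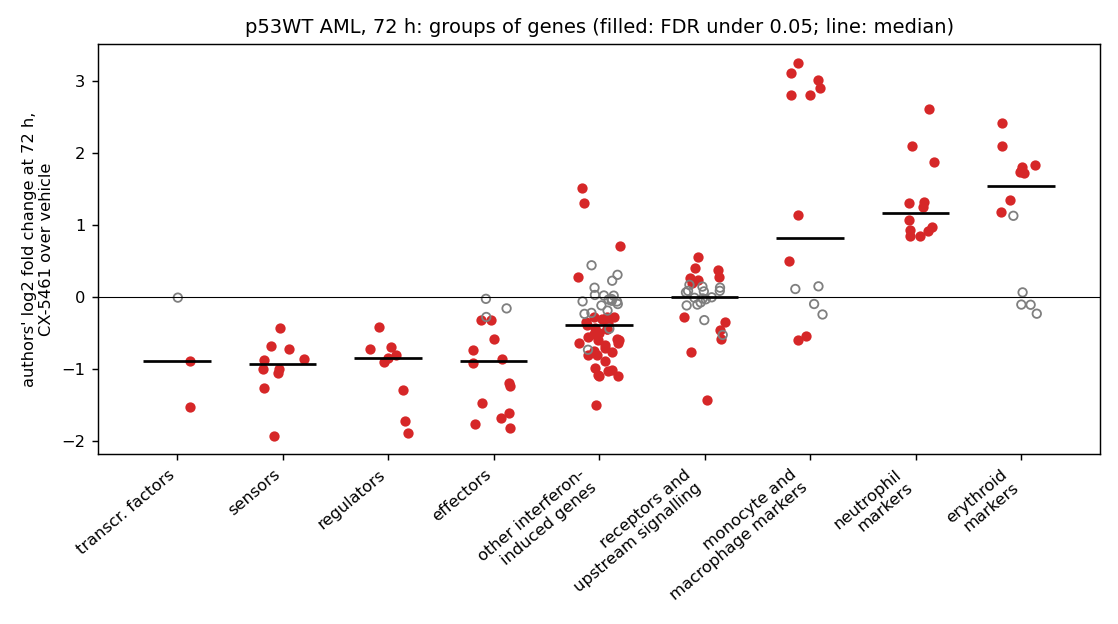
The authors' log2 fold change at 72 h in p53WT AML (y axis, CX-5461 over vehicle) for the 4 roles, further interferon-induced genes, upstream genes and 3 lists of cell type markers (x axis). Points are genes, filled red where the FDR is under 0.05, and lines are medians, which are below 0 for each role (-0.85 to -0.93) and above 0 for the 3 marker lists (0.82 to 1.54).

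At 72 h the marker lists of neutrophils, erythroid cells, and monocytes and macrophages had positive medians, opposite to the interferon-stimulated genes. Neutrophil markers were higher for 12 of 12 in the authors' deposited table (median log2 fold change 1.16), 9 of 14 erythroid markers were higher and 0 lower (median 1.54), and 8 of 14 monocyte and macrophage markers were higher and 2 lower (median 0.82). The complement gene C1qa had 2.90 and the monocyte gene Ly6c2 -0.59 in the authors' deposited table. Of 5 measured plasmacytoid dendritic cell markers 3 were higher and 1 lower, the lower being Bst2 itself, and Siglech had a mean of 1.24 CPM in the authors' deposited table. Of the remaining lists, 2 of 5 B and plasma cell, 1 of 2 T and NK cell and 2 of 4 megakaryocyte markers were higher and 1 of 3 stromal markers was lower in the authors' deposited table. In p53null AML 0 markers of any of these lists passed in the authors' deposited table. The part of changed cell composition in the falls at 72 h was not tested.

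The log2 fold change at 72 h was set beside the position of library 1 at 10 h, which comes from different samples. For each gene, log2 CPM of library 1 minus the mean of libraries 2 and 3 was averaged over both arms at 10 h. This difference was negative for all 38 genes (46.4% of all genes), with a median of -0.54 and a range of -1.20 (Oasl2) to -0.22 (Sp100). Across the 38 genes it correlated with the log2 fold change at 72 h from the authors' deposited table at Pearson r = 0.72 and Spearman rho = 0.74, whereas r was 0.04 over 12277 genes. The 38 points share the same 6 libraries at 10 h and the same 6 samples at 72 h and are not independent, and the correlation is given as a description. Irf7, Ifit1 and Oasl2 were low in both measures, and Stat2, Samhd1 and Sp100 were near the top of both. The order was not the same throughout: Ifit3 and Lgals3bp were low in library 1 (-0.88 and -0.90) with 72 h values of -0.28 and -0.58 in the authors' deposited table.

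**Figure D5:**
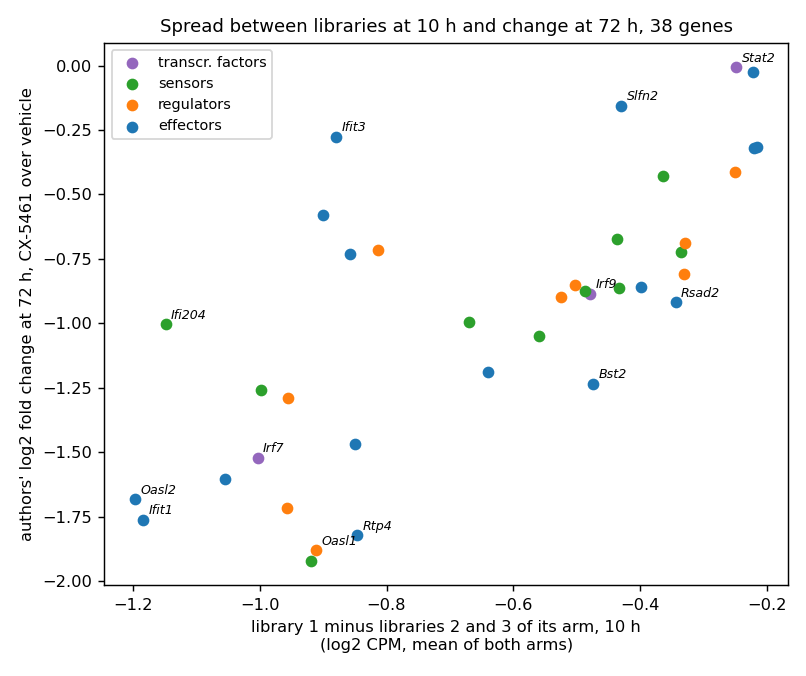
Each point is 1 of 38 interferon-stimulated genes, coloured by role. The x axis gives library 1 minus libraries 2 and 3 of its arm at 10 h (log2 CPM, mean of both arms) and the y axis the authors' log2 fold change at 72 h, with Pearson r = 0.72 across genes and Oasl2 and Ifit1 at the lower left.

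Mean levels also differed between the tables, which were normalized separately and average treated and vehicle samples. The authors' mean log2 CPM was lower at 72 h than at 10 h in p53WT AML for all 38 genes, by a median of -0.67 against -0.07 for all genes in the authors' deposited tables. Between p53null and p53WT AML at 10 h, 25 genes were lower and 13 higher, with a median difference of -0.13 against -0.07 for all genes in the authors' deposited tables. The extremes there were Rsad2 (-1.83) and Xaf1 (1.34) in the authors' deposited tables. These differences have no error and were not tested.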

How the data were processed

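RNA of sorted GFP-positive AML cells was sequenced from 18 samples. The build was mm9 and the tools were Bowtie, HTSeq, edgeR and CASAVA 1.8.2, per the submitters' processing notes; their order, settings and annotation are not given in the sources used here. The authors deposited 3 tables with their log2 fold change, log2 mean CPM, p-value and FDR, and raw counts for the 6 p53WT libraries at 10 h. Count columns name the arm and a number from 1 to 3 that matches no title number, so each was assigned to its group only. Ifi44 is in none of the tables and has no value here. Ensembl IDs were paired with symbols for 12237, 12366 and 12362 IDs.

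Counts were TMM-normalized and tested over all 12679 genes with edgeR 4.0.16 (quasi-likelihood F test, two-sided, treatment as the only term, 4 residual degrees of freedom, R 4.3.3), after a check on simulated data, with Benjamini-Hochberg adjustment and a threshold of 0.05. Log2 CPM used a prior count of 2. The other 2 comparisons use the authors' deposited values, since those tables hold no counts. Alternatives were RLE factors, library size alone, a filter at 5 CPM in 3 libraries, DESeq2 1.42.0, limma-voom (limma 3.58.1), a replicate block, omission of single libraries and, chosen after the data were seen, omission of library 1 of both arms. Fully described were members past a threshold, the 5 largest changes of each table and 9 key members fixed by name (Irf7, Irf9, Stat2, Isg15, Usp18, Ifih1, Ddx58, Ifit1 and Bst2). The members, roles and lists were chosen with earlier results of these data known.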

Additional observations from a re-analysis of the deposited data

How the results depend on the processing

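At 10 h in p53WT AML, members called lower numbered 1 with the quasi-likelihood test, 4 by DESeq2 and 0 by limma-voom, and from 0 to 4 when libraries were left out. Members called higher numbered 0, and from 0 to 1 when libraries were left out. Over all genes, 1027 were called, 2314 by DESeq2, and from 12 to 1678 when libraries were left out. With the column numbers as a replicate block, 4 members were lower and 2 higher (Bst2 and Ifi35). These numbers were not shown to pair samples: deviations of same-numbered libraries correlated at 0.30, 0.11 and 0.03 across genes, and CX library 3 correlated better with vehicle library 2 (0.09). At 72 h 34 members were lower at an FDR of 0.1 and 30 at 0.01, and in p53null AML 0 passed at either. No paired analysis was possible because no counts were given for those tables.

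The sign of the 10 h log2 fold change varied for 17 of 38 members, none of them called, when libraries were left out. The ranges were -0.93 to 0.23 for Ifit1, -0.63 to 0.13 for Irf7, -0.17 to 0.14 for Irf9, -0.053 to 0.11 for Stat2, -0.25 to 0.33 for Usp18, -0.083 to 0.50 for Rtp4, -0.31 to 0.22 for Xaf1, -0.12 to 0.17 for Ifih1, -0.22 to 0.017 for Ddx58, -0.30 to 0.39 for Slfn5, -0.17 to 0.24 for Slfn8, -0.16 to 0.16 for Trim30a, -0.30 to 0.0041 for Parp9, -0.42 to 0.040 for Parp14, -0.0091 to 0.23 for Dtx3l, -0.13 to 0.049 for Sp100 and -0.10 to 0.39 for Lgals3bp. Xaf1 had 0.038 with library size alone, 0.12 by limma-voom and 0.055 with the replicate block, and Sp100 0.00033 with library size alone.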
